A study of Drosophila melanogaster with 2 samples.

Results

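The peaks described here lie at the first promoters of protein-coding genes whose start sites near the peak all point the same way. They come from chromatin immunoprecipitation and sequencing (ChIP-seq) of CG14711 in the fruit fly Drosophila melanogaster. A peak was taken when a protein-coding transcription start site (TSS) lay within 500 bp of its summit, all such TSSs were on 1 strand, and at least 1 of them was within 1000 bp of the most upstream TSS of its gene. Of the 5654 peaks in the optimal list of the irreproducible discovery rate (IDR), a filter on how well ranked peaks repeat between replicates, 1776 (31.4%) met this rule and are called one-strand first promoter peaks. Another 1274 (22.5%) had protein-coding TSSs of both strands within 500 bp of the summit and are called divergent promoter peaks. The rest were 446 at internal alternative promoters (7.89%) and 2158 with no protein-coding TSS near the summit (38.2%). The rule used the position of the summit and no signal value, but the IDR list it started from is also the 5654 peaks of highest signal in the pooled list of both replicates.

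The single group was whole adult female flies, of unknown age, from a transgenic line that stably expresses CG14711 with GFP fused to its C terminus. Chromatin was sonicated to a stated range of 200 to 800 bp and precipitated with an antibody against GFP. The 2 samples, biological replicates 3 and 4, came from separate biosamples of 1 donor line, and the labels give no untagged or second condition as a group. All cell types of the fly were pooled in the chromatin, so weak binding in many cells and strong binding in few cells cannot be told apart. No read counts were in the lists used, so the depth of either library is unknown. Each list's signal value is the authors' own, and it orders peaks below only inside 1 list.

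CG14711 belongs to the ZAD family of zinc finger proteins, an insect class of DNA-binding factors in which an amino-terminal zinc-finger-associated domain pairs protein molecules and an array of C2H2 fingers contacts DNA. Fly genes are closely packed, and the space before a TSS often also holds the end or the start of a neighbouring gene. Housekeeping promoters of the fly commonly carry the DNA replication-related element (DRE), recognised by the factor DREF, or Motif 1, recognised by M1BP, while promoters of tissue-restricted genes more often carry a TATA box or an initiator.

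The sequences around the strongest summits show what these sites look like. The 10 peaks of highest signal on arms 2L, 3L, 3R and X are printed 5′ to 3′ on the strand of the gene, from 60 bp before to 60 bp after the summit. The letters are dm6, from the RefSeq copy of that assembly. A sequence was shortened where more than 30 of its bases were annotated untranslated region. Capitals mark the word CAACNCTG (N is any base), its first 7 letters with C or T in the middle (CAACCCT or CAACTCT), the DRE (TATCGATA) or the core of Motif 1 (GGTCACAC), read on either strand.
CG6770 (chr2L:12046194-12046314, minus strand): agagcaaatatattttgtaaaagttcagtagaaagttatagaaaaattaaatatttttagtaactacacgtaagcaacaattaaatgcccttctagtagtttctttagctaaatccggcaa
l(3)L1231 (chr3R:14655269-14655389, minus strand): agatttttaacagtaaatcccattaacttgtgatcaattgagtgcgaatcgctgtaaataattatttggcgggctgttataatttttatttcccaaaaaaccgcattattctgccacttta
Ugalt (chrX:2703823-2703934, minus strand): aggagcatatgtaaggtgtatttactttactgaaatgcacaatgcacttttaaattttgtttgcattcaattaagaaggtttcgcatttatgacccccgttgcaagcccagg
CG14100 (chr3L:19590551-19590671, minus strand): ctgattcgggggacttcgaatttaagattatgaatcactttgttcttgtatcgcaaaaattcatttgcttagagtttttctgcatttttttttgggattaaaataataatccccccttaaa
Gapdh2 (chrX:15867920-15868040, plus strand): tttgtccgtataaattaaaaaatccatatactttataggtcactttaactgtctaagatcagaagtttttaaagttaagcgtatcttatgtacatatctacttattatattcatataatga
ph-d (chrX:2123289-2123409, minus strand): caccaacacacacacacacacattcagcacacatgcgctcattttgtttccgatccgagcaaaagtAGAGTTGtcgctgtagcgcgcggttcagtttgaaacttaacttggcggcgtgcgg
CG1907 (chr3R:29618805-29618925, plus strand): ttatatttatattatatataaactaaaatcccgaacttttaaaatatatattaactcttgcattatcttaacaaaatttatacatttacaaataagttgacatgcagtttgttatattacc
CG17982 (chrX:8143727-8143756, minus strand): gtttataaaattcggaaaatttttaaagaa
aqz (chr3R:8820729-8820849, minus strand): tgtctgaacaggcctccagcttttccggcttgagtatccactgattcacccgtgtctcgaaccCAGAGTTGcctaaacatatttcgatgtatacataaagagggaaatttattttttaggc
gro (chr3R:26042439-26042559, plus strand): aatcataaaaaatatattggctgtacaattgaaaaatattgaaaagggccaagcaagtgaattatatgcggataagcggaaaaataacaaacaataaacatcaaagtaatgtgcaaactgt
Most of these stretches are rich in A and T, and capitals appear in those of ph-d and aqz only.

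Peaks that do hold one of the elements within 50 bp of the summit are shown next, because the share of peaks with each element is the main sequence result below. They are the strongest of their kind on the same arms and were chosen after their values were seen. The shortened stretches of Rpn10 and CG3662 hold the element but not the summit itself. The first 3 hold CAACCCTG or its reverse complement, the next 2 hold CAACTCTG (as does aqz above), the next 3 CAACACTG, the next 2 the DRE (as does CG17612), the next 3 the Motif 1 core, and the last 3 are from ribosomal protein genes.
Rpn10 (chr3L:21537050-21537079, plus strand): acagcacctggCAACCCTGgggaattacag
Usp10 (chr3L:871832-871928, plus strand): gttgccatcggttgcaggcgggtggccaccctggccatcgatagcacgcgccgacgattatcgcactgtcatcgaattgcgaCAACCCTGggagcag
CG17612 (chr2L:4382706-4382795, minus strand): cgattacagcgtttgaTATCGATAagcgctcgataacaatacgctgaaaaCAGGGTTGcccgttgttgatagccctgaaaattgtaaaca
spartin (chr3R:4654675-4654795, plus strand): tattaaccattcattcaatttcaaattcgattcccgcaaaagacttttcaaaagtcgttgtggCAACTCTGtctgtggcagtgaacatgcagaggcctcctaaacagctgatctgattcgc
CG31126 (chr3R:24659540-24659650, plus strand): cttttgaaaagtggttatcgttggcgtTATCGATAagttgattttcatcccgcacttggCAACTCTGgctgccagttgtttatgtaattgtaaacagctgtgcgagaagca
CG7685 (chr3R:18404856-18404969, plus strand): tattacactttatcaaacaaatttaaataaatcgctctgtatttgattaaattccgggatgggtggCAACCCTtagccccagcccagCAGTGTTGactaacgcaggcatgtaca
Pi3K21B (chr2L:297790-297909, plus strand): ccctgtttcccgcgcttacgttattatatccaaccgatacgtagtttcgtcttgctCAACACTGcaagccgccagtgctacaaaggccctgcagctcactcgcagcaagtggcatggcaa
nmdyn-D7 (chr3R:9679884-9679968, plus strand): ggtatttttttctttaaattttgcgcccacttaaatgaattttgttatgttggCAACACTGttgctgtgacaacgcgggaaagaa
SNF4Agamma (chr3R:21140615-21140735, plus strand): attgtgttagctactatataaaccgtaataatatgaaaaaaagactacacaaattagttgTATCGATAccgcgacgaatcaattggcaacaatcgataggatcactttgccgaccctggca
DnaJ-1 (chr3L:5752187-5752307, minus strand): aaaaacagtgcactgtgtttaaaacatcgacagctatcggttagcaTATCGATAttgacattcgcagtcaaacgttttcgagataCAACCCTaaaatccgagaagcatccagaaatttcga
CG14252 (chr3R:26945385-26945505, plus strand): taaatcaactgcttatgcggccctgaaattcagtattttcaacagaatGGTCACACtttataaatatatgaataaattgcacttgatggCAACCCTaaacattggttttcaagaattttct
CG3662 (chr2L:821422-821451, plus strand): gaattagaactGGTCACACtggcttgtctg
Strump (chr3L:16121902-16122022, plus strand): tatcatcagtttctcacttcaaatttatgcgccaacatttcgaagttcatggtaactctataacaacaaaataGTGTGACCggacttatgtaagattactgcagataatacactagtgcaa
RpL23A (chr3L:1668669-1668789, minus strand): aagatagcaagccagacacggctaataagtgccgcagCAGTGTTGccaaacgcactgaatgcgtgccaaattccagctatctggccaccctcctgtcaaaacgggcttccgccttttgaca
RpL24 (chr2L:13395102-13395183, minus strand): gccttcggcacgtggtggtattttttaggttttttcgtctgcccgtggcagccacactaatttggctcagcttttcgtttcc
RpS5b (chr3R:14901557-14901677, minus strand): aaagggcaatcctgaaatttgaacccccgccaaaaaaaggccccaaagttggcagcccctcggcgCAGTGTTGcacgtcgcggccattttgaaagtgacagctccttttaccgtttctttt
CG17612 and CG31126 hold a DRE and the 8-base word in the same stretch. CG7685, DnaJ-1 and CG14252 hold the 7 letters CAACCCT followed by T or A.

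The strongest peak of the class lay 136 bp upstream of the TSS of CG6770 (gene on the minus strand of 2L, 12045343 to 12046118), with a signal of 5317. Its rank was 3 of 30000 in the replicate 3 list (signal 2513) and 13 of 30000 in the replicate 4 list (signal 2832). The next was 132 bp upstream of a TSS of l(3)L1231 (signal 5171), with ranks of 4 in replicate 3 and 17 in replicate 4. The peak of Ugalt, which encodes a UDP-galactose transporter, had its summit 22 bp upstream of the TSS (signal 5148) and ranks of 16 and 6. All 3 were thus among the 20 best peaks of both replicate lists. The peak of CG14100 (signal 4972) lay 87 bp upstream of a TSS that is itself 249 bp from the end of the ash1 gene in front of it, and its ranks of 32 in replicate 3 and 4 in replicate 4 were further apart.

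Further strong peaks were at genes of metabolism, chromatin and protein turnover. Gapdh2, which encodes the glycolytic enzyme glyceraldehyde 3-phosphate dehydrogenase, had its summit at −165 bp with a signal of 4959 and ranks of 14 in replicate 3 and 7 in replicate 4. The peak of ph-d, which encodes a Polyhomeotic subunit of Polycomb repressive complex 1, was at −63 bp; its signal was 4920, and it ranked 9 in each replicate list. Its tandem copy ph-p, the gene upstream of it, had a peak of its own with a signal of 2188 and a summit at 451 bp downstream of the nearest TSS. The sources used here do not say how reads that match both copies were treated. The peak of mRpL41, a large subunit protein of the mitochondrial ribosome, had a signal of 4913, with ranks of 33 and 5. The genes sbb (4085) and gro (4015), the latter encoding the co-repressor Groucho, the proteasome ubiquitin receptor gene Rpn10 (3808), the centriole gene asl (3779) and the nuclear import gene Karybeta3 (3728) followed, together with CG1907 (4429), CG17982 (4163) and aqz (4051).

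Signals of the other 10 among the 25 strongest ran from 3627 at the ubiquitin protease gene Usp10 down to 2790 at CG1737, through CG1635, l(1)G0320, CG1271, CG14712, CG9922, CG18549, Fkbp14 and Ero1L. All 25 ranked within the best 100 of the replicate 3 list and the best 95 of the replicate 4 list. In 21 of the 25 the summit was upstream of the TSS, and offsets spanned −362 bp (Ero1L, an endoplasmic reticulum oxidase gene) to 356 bp (CG1737). The 8-base word CAACNCTG lay near the summit in 4 of them (aqz, Rpn10, Usp10 and CG9922), its 7-letter form with C or T in the middle in 7, and the DRE and the Motif 1 core in 0. CG14712 stands 3640 bp beyond the end of CG14711 itself on 3R, counted to the summit, and a tagged transgene can add copies of sequence around its own gene; the part of that in the signal of 3215 was not tested.

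The weakest members show the other end of the scale. The last 5 of the class, at Paics, Acbp2, t-cup, path and ND-B14.5A, had signals of 146.6 down to 146.3. Paics ranked 19733 in replicate 3 and 5366 in replicate 4. ND-B14.5A ranked 3463 in replicate 3 and 9995 in replicate 4. Acbp2 (4534) and t-cup (2633) were matched in replicate 3 only, and path (3112) in replicate 4 only. None of these 5 therefore stood among the 5654 best of both lists, whereas the 25 strongest all did.

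Across the class the median signal was 239 (quartiles 182 and 426, range 146 to 5317), and 154 peaks were above 1000. Divergent promoter peaks had a higher median, 317 (quartiles 206 and 623), and internal promoter peaks had 277. In the list of replicate 3 the median rank, among peaks picked from that list by the same rule, was 2969 for one-strand first promoters, 2006.5 for divergent and 2898 for internal ones. In replicate 4 these medians were 3016, 2205.5 and 2620. Divergent peaks were thus ahead in both replicates, while one-strand first and internal promoters had nearly the same median in replicate 3.

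Replicates were compared by matching each member to the nearest summit within 100 bp in each replicate list. A match was found for 1661 members (93.5%) in replicate 3 and for 1730 (97.4%) in replicate 4. Of all 1776, 1118 (63.0%) were among the 5654 best peaks of both lists, 372 of replicate 4 only, 240 of replicate 3 only, and 46 of neither. The share in the best of both was 71.7% for divergent and 66.1% for internal promoter peaks. Over the 1620 members matched in both lists, Spearman's rho between the replicate ranks was 0.626, against 0.819 for divergent and 0.668 for internal promoter peaks. These are descriptions across peaks that share the same 2 libraries. The 25 strongest members were near the top of both lists but not in the same order there, as the ranks of CG14100 (32 and 4) and CG6770 (3 and 13) show.

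**Figure D1:**
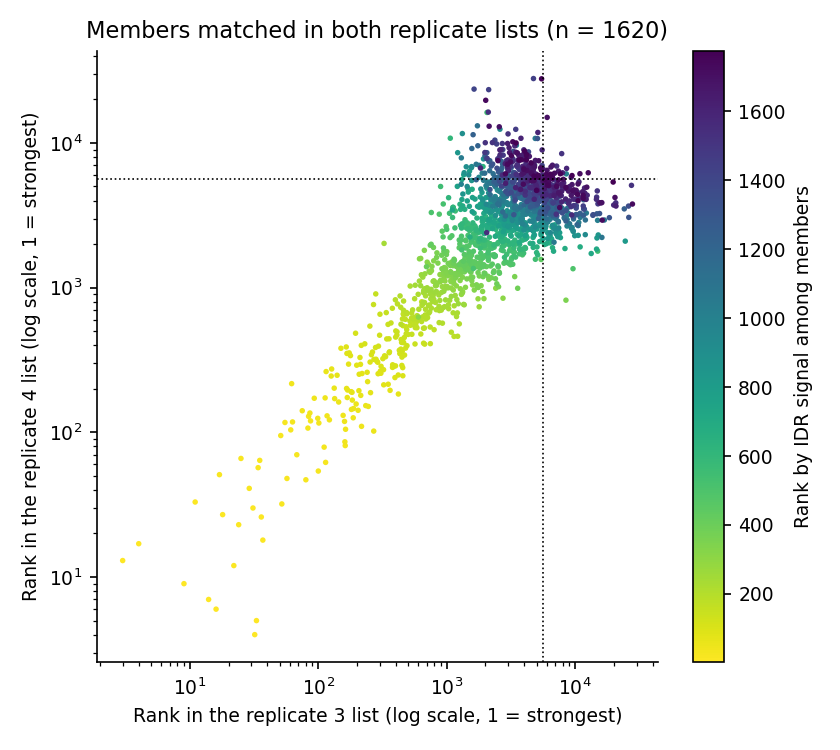
Rank of each one-strand first promoter peak in the replicate 3 list (x) and the replicate 4 list (y), on log axes with 1 the strongest; each point is 1 of the 1620 peaks matched in both lists, coloured by its rank among members in the IDR list, and dotted lines mark rank 5654. The 25 strongest peaks lie within the best 100 of the replicate 3 list and the best 95 of the replicate 4 list, in differing order, and peaks of lower IDR rank lie on both sides of the dotted lines.

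Summits sat mostly just upstream of the TSS. The signed offset from the nearest protein-coding TSS, negative upstream along the gene, had a median of −76 bp (quartiles −171 and 0, 5th to 95th percentile −363.5 to 178 bp). In 1327 of 1776 members (74.7%) the summit was upstream, and in 867 (48.8%) it was within 100 bp on either side. Divergent promoter peaks had the same median (−76 bp) with a tighter spread, quartiles −120 and −16.25 bp, and 59.2% within 100 bp. Their offset is to the nearest TSS of either strand, and their class requires starts of both strands within 500 bp. The tighter spread is therefore partly set by the class rule. Internal promoter peaks were farther upstream, at a median of −185.5 bp with 24.9% within 100 bp. The bin from 100 to 1 bp upstream held 32.2% of the members, and that from 200 to 101 bp upstream held 23.1% with the higher median signal (297 against 228). From 0 to 99 bp downstream there were 16.7%, with a median signal of 200.

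**Figure D2:**
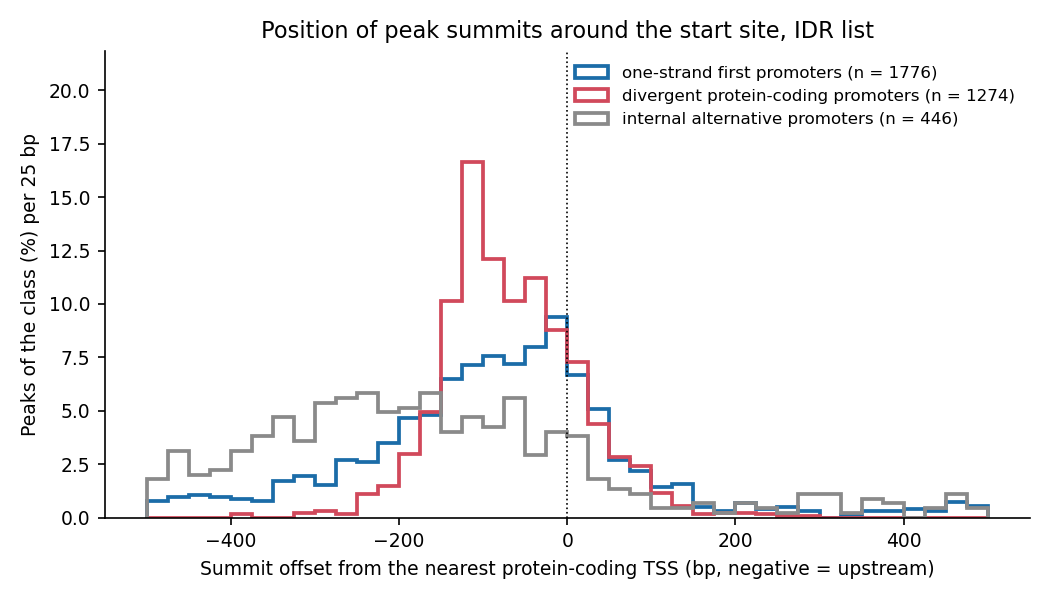
Histogram of summit offsets from the nearest protein-coding TSS (x, bp, negative upstream) as the percentage of each class per 25 bp (y), for one-strand first (blue), divergent (red) and internal (grey) promoter peaks of the IDR list. The one-strand first and the divergent peaks share a median of −76 bp, and the one-strand first peaks have the longer upstream tail. Divergent offsets are to the nearest TSS of either strand, so this difference in tails is partly set by the class rule.

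The median position differed with the replicate whose peaks were taken. Picked by the same rule from the 5654 best of each list, the median offset was −42 bp with 62.9% upstream in replicate 3, and −87 bp with 80.3% upstream in replicate 4. Over the 1620 members found in both lists the median offset was −73 bp in replicate 3 and −79 bp in replicate 4, and the 2 summits of a member were a median of 29 bp apart. Each match had to lie within 100 bp of the IDR summit, so that distance is bounded by the rule. Of these 1620 members, 71.7% were upstream by the replicate 3 summit and 77.6% by the replicate 4 summit. Members among the best of replicate 3 only had a median offset of 2 bp, 49.2% upstream, and a GC content of 41.8% at the summit. Those among the best of replicate 4 only had a median offset of −92.5 bp, 80.6% upstream, and a GC content of 35.8%. The 1118 in the best of both were at −87 bp with 35.8% GC. Base composition thus moved with the replicate, and its part in the offset was not tested.

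Stronger peaks lay farther upstream. With the members cut into 5 groups of 355 or 356 by IDR signal, the median offset went from −119.5 bp in the strongest group through −102, −76 and −42 to −33 bp in the weakest. The GC content of the 101 bp around the summit rose in the same order in the IDR ranking, from 33.8% through 34.6%, 37.1% and 38.7% to 39.4%, while the flanking windows centred 300 bp to either side stayed between 40.8% and 41.9%. Ranked by replicate 4 the medians were −119.5, −113, −77, −62 and −8 bp. Ranked by replicate 3 they were −98, −85, −38.5, −61 and −88 bp, so beyond the third group the trend turned round there. GC content rose through all groups when ranked by replicate 4, from 33.6% to 40.8%. Ranked by replicate 3 it was 34.7%, 36.5%, 38.03%, 38.2% and 36.2%, lower again in the weakest group. Across all 1776 peaks Spearman's rho of signal with GC at the summit was −0.207 and with the absolute offset 0.162.

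The genome around the summits was read from the annotation. The summit was outside every protein-coding gene in 1038 members (58.4%), inside the peak's own gene only in 564 (31.8%), inside another gene only in 132 (7.43%), and inside both in 42 (2.36%). By feature, 425 summits (23.9%) were in a 5′ untranslated region, 246 (13.9%) in an intron, 42 (2.36%) in a 3′ untranslated region and 25 (1.41%) in a coding exon. Median signal was lowest in coding exons (176) and in 5′ untranslated regions (204), against 254 outside genes and 262 in introns. The nearest TSS was the most upstream one of its gene in 1525 members (85.9%), where the median offset was −85 bp. It was another TSS in 251 (14.1%), with a median offset of −23 bp, and in 5 of these it was over 1000 bp from the first TSS, since another TSS in the window met the rule.

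The peaks are one-stranded by protein-coding starts only. In 95 members (5.35%) a non-coding gene started on the other strand within 500 bp of the summit. Their median signal of 242 was close to the 239 of the other 1681. A single protein-coding gene started near the summit in 1723 members, while 50 had 2 such genes and 3 had 3. Over the 1666 genes named by the nearest TSS, 106 had more than 1 member peak, and 4 (CG31075, Hsc70-3, Reph and sm) had 3 each, a set named after its count was seen. Just inside the limit on the summit, at over 450 to 500 bp from the TSS, 52 peaks had a median signal of 236, and just outside, at over 500 to 550 bp, 39 had 296. Just inside the limit on the first TSS, at over 800 to 1000 bp, 34 peaks had a median of 285, and just outside, at over 1000 to 1200 bp, 31 had 298.

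Genes were counted against a background. A gene was taken as eligible when no protein-coding TSS of the other strand lay within 500 bp of its most upstream TSS. Of 10141 eligible genes, 1640 had a one-strand first promoter peak, which is 16.2%. Over all 13945 protein-coding genes of the 6 arms, 1719 had one, which is 12.3%. Another 135 eligible genes (1.33%) had some other IDR peak within 500 bp of the first TSS, 3217 (31.7%) had only a pooled peak below the IDR list, and 5149 (50.8%) had no peak in any list used. By arm the share of eligible genes ran from 14.8% on 2L to 18.9% on X, with 21.2% (14 of 66 genes) on chromosome 4.

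Genes of the cytoplasmic ribosome had the fullest coverage among the 31 gene lists. Of 56 eligible ribosomal protein genes, 45 (80.4%) had a one-strand first promoter peak, against 16.2% of all eligible genes. A divergent promoter peak was found at 31 of the 92 genes of the list, eligible or not. The peaks were of middling signal: the median was 299, the highest RpL23A (741), RpL24 (673) and RpS5b (603), and the lowest RpL15 (158). Their summits hugged the TSS, with a median offset of −8 bp (range −138 to 137 bp) and 31 of 45 within 50 bp, whereas 29.3% of all members were that near. GC content at these summits was 44.2%, against 36.7% over all members. Of the 42 peaks matched in both replicates, 31 ranked better in replicate 3, with median ranks of 1423 in replicate 3 and 3000 in replicate 4. Over all members 813 of 1620 did so, with median ranks of 2844 and 2991.5. RpS6, which encodes the small subunit protein phosphorylated downstream of TOR, ranked 1065 in replicate 3 and 10780 in replicate 4. The word CAACACTG was near the summit in 4 of the 45, among them RpL23A and RpS5b printed above, against 64 of all 1776 members.

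Other translation and mitochondrial gene lists were covered less than the cytoplasmic ribosome, at 16.7% to 42.3%, against 16.2% of all eligible genes. Of the 26 eligible translation initiation factor genes, 11 (42.3%) had a peak, led by eIF6 (2363), eIF4E1 (761) and eIF3c (374), with a median offset of −15 bp. Mitochondrial ribosomal protein genes mostly start opposite another gene: only 20 of 73 were eligible. Of these, 5 (25%) had a one-strand first promoter peak, and 38 genes of the list had a divergent one. The 5 were mRpL41 (4913), mRpL19 (340), mRpL10 (279), mRpL9 (233) and mRpL4 (180), all upstream of the TSS, at −139 to −53 bp. Oxidative phosphorylation genes had 15 of 50 (30%), with ND-B22 of complex I at 1983 and blw and ATPsynO of the ATP synthase at 520 and 304. Aminoacyl-tRNA synthetase genes had 2 of 12, AlaRS (268) and AspRS-m (221), which is close to the background share. A divergent promoter peak was found at 17 of the 33 synthetase genes, eligible or not.

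The glycolysis and the insulin and TOR lists had shares above the 16.2% of all eligible genes. The glycolysis list had peaks at 4 of 6 eligible genes: Gapdh2 (4959), Hex-A (1865), Ldh (535) and Tpi (214). Their summits lay between −200 and −165 bp, and none was within 50 bp of the TSS. The insulin and TOR list had peaks at 7 of 13. Pi3K21B, the adaptor subunit of phosphoinositide 3-kinase, had 1353, the stress-induced TOR inhibitor Sesn 939 and the forkhead factor foxo 424. The insulin receptor InR (295), the kinase Lk6 (241), the translation repressor Thor (212) and the receptor substrate chico (200) made up the rest. The median offset of these 7 was −220 bp, but they fell apart in place. Summits of foxo, Thor, Pi3K21B and Sesn lay between −390 and −220 bp, whereas those of InR (−59 bp), Lk6 (−13 bp) and chico (1 bp) were close to the TSS. Within 50 bp were 28.6% of the 7, near the 29.3% of all members. The peak of foxo was matched in replicate 4 (rank 1343) but not in replicate 3.

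Chromatin and transcription factor lists had shares from 25% (trithorax and remodeller genes) to 54.5% (Polycomb group), against 16.2% of all eligible genes. Polycomb group genes had peaks at 6 of 11: after ph-d (4920) and ph-p (2188) came Pc (719), Su(z)2 (203), Scm (166) and esc (163). General transcription factor genes had 5 of 12, led by Taf4 (617), TfIIA-S (302) and Taf9 (211). Insulator protein genes had 3 of 8, BEAF-32 (364), pita (214) and CTCF (179). Mediator genes had 3 of 9, MED24 (274), MED6 (223) and MED4 (168). Co-repressor genes had 2 of 6, gro (4015) and Sin3A (336). Trithorax and remodeller genes had 2 of 8, osa (201) and trx (167). Apart from ph-d, ph-p and gro, the strongest of these was Pc, and 10 of the named peaks were below 240.

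Lists of clock, stress and germline genes lay on both sides of the 16.2% of all eligible genes. The circadian list had 5 of 14 (35.7%), with the light receptor gene cry at 1398, tim at 493, per at 346, cwo at 205 and CkIIbeta at 168. Heat shock and chaperone genes had 5 of 21 (23.8%): DnaJ-1 (2387), the small heat shock protein genes Hsp27 (2070) and Hsp26 (569), Hsc70-3 (409) and Hsp60A (299). All 5 of these summits were upstream of the TSS, at −157 to −58 bp. In the oogenesis list 6 of 15 (40%) had a peak, led by bgcn (1073) and bam (359), both needed for differentiation of germline cells, and the translational repressor pum (328). Eggshell and yolk genes had 3 of 19, Yp3 (552), Cp7Fb (205) and dec (186), which is 15.8%. The piRNA list had 1 of 12, vls (880), or 8.33%, below the share of all eligible genes.

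Further lists of general cell functions had shares from 27.8% down to 15.2%, against the background of 16.2%. Vps and Rab trafficking had 8 of 29 (27.6%), led by Vps15 (558), Rab4 (262) and Rab11 (218). Proteasome genes had 6 of 25 (24.0%), with Rpn10 at 3808 and Rpn11 and Rpn12 at 320 and 256. Signalling pathway genes had 5 of 18 (27.8%), led by arm (1380), which encodes the fly β-catenin, then aos (298) and dsh (218). Cell cycle genes had 4 of 18, led by pav (250), polo (235) and fzr (184), and vacuolar ATPase genes 4 of 21, led by VhaM9.7-c (259), Vha13 (249) and Vha16-1 (202). Cytochrome P450 genes had 12 of 79 (15.2%), led by Cyp6u1 (1062), whose peak lies nearer to the TSS of Ufsp1, then Cyp6t1 (399) and Cyp4d20 (354).

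In 7 lists, beside the piRNA list above, the share was below 10%, against 16.2% of all eligible genes and with no test of the difference. Neuronal genes had 2 of 21 (9.52%), elav (1324) and Syx1A (190), muscle genes 1 of 21 (4.76%), sls (351), and Hox and segmentation genes 1 of 24 (4.17%), opa (249). The peak of elav, a marker gene of neurons, ranked 328 in replicate 3 and 338 in replicate 4. No member peak was found at 164 eligible chemoreceptor genes, 122 cuticle protein genes, 44 odorant binding protein genes or 8 nucleoporin genes. A divergent promoter peak was found at 6 of the 21 nucleoporin genes, eligible or not. For chemoreceptor genes it was 2 of 179, for cuticle protein genes 3 of 128 and for odorant binding protein genes 0 of 51.

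**Figure D3:**
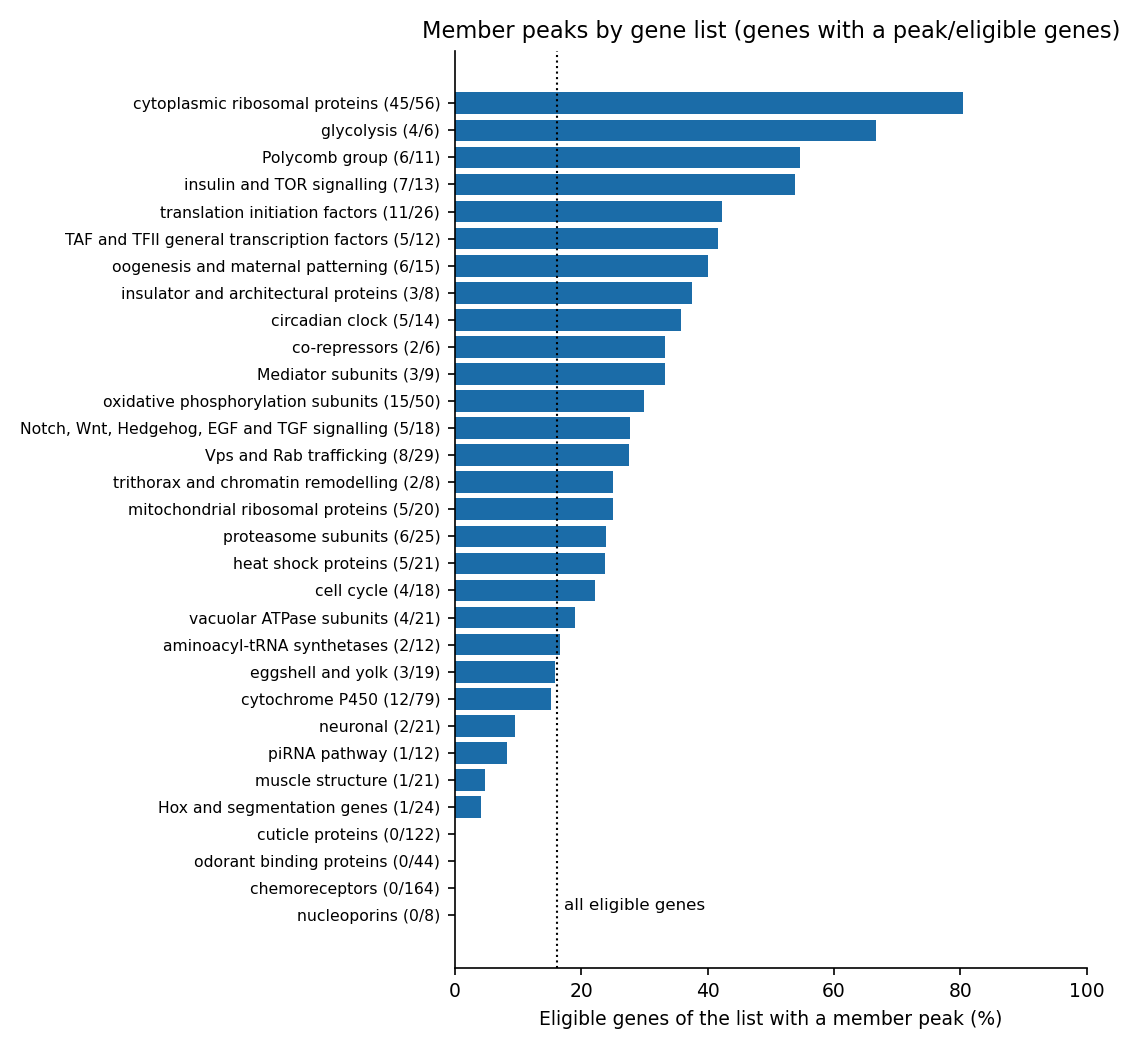
Percentage of the eligible genes of each list that had a one-strand first promoter peak (x), by list (y, with genes with a peak over eligible genes); the dotted line is the 16.2% of all eligible genes. Ribosomal protein genes stand at 80.4%, and 4 lists stand at 0.

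Genes with these peaks had close but separate neighbours. The median distance from the first TSS of the gene to the nearest protein-coding gene upstream was 518 bp over the 1775 peaks with a value (quartiles 210 and 1326.5). Counted over eligible genes it was 518 bp with a peak (quartiles 197 and 1352.5, n = 1639) and 662 bp without (quartiles 121 and 2882, n = 8494). A gap of 1 to 500 bp was found for 35.8% of genes with a peak and 21.4% of those without. A gap over 2000 bp was found for 19.5% and 29.6%. Since eligibility removes opposite starts within 500 bp, every gap of 1 to 500 bp here is to the end of a gene that runs in the same direction.

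The share of eligible genes with a peak had its maximum at intermediate gaps. It was 11.6% for genes that start inside another gene, 18.8% for gaps of 1 to 200 bp, 28.9% for 201 to 500 bp, 18.2% for 501 to 1000 bp and 15.4% for 1001 to 2000 bp. It fell to 12.7% for 2001 to 10000 bp and 8.87% above that. By orientation, 18.6% of genes with a tandem upstream neighbour had a peak, 15.03% with a divergent one, 16.0% of those inside a gene of the same strand and 8.28% of those inside a gene of the other strand. Divergent neighbours enter only at gaps above 500 bp. Up to 1000 bp, a summit within 500 bp of both starts counts as a divergent promoter peak and not here. The fall above 500 bp and the split by orientation are therefore partly set by the rules. Signal did not follow distance: the medians of the 7 bins lay between 221 and 249, and Spearman's rho was 0.0169 over 1775 peaks.

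The room upstream also went with the place of the summit. Median offsets were −34 bp where the gap was 1 to 200 bp, −49 bp at 201 to 500 bp and −77 bp at 501 to 1000 bp. Above 1000 bp they were −131, −138 and −129 bp in the 3 widest bins. With a divergent neighbour, the one-strand rule removes summits within 500 bp of the opposite TSS. Offsets at gaps up to 1000 bp are therefore partly bounded by the rule, and those at wider gaps are not. These medians are over all members, eligible or not, so gaps up to 500 bp also include divergent neighbours. Such a neighbour leaves only downstream summits, as at wde (gap 459 bp, summit at 491 bp). Inside another gene the median was −85 bp. Single strong peaks lay on either side of these medians. CG14100, with a gap of 249 bp, was at −87 bp and CG6770, with 593 bp, at −136 bp, while Ugalt, with 719 bp, was at −22 bp and asl, with 732 bp, at −3 bp. The 5 members farthest from an upstream protein-coding gene were DIP1 (512910 bp), CG14621 (191813 bp), RpL15 (109256 bp), Cyp6t1 (81284 bp) and NijA (75048 bp). Their signals ran from 152 at CG14621 to 617 at NijA.

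**Figure D4:**
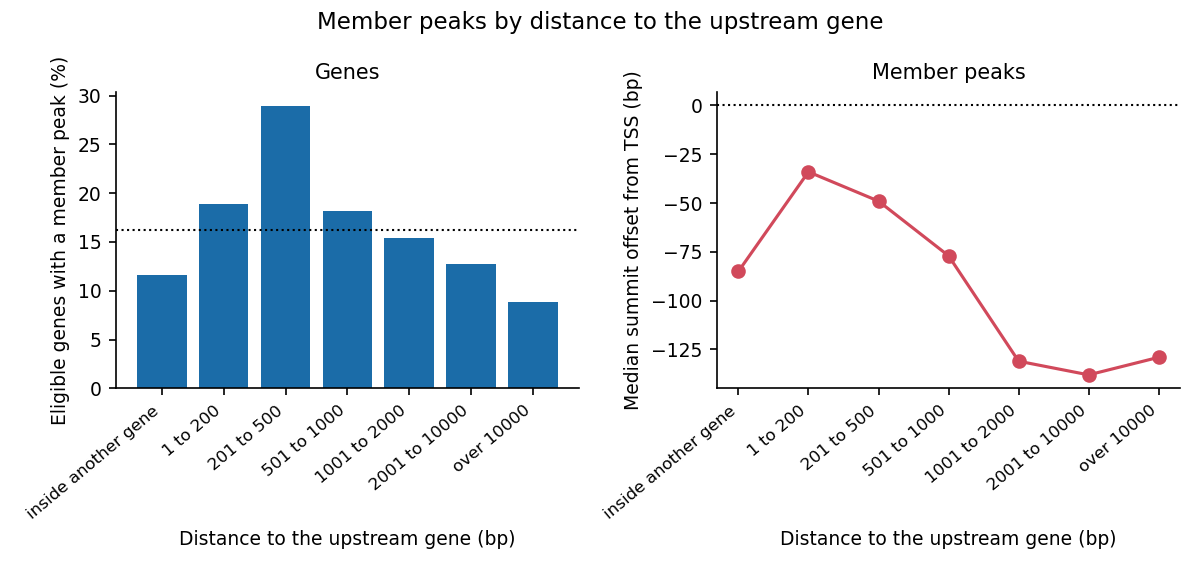
Left, percentage of eligible genes with a one-strand first promoter peak (y) by distance from the first TSS to the upstream protein-coding gene (x, bp); the dotted line is 16.2%. Right, median summit offset (y, bp, negative upstream) of the peaks in the same bins, which lies nearest to the TSS at the shortest gaps. Offsets at gaps up to 1000 bp are partly bounded by the one-strand rule.

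The extremes of position are set by the 500 bp limit, and their signals ran from 184 to 899. The most upstream summits were at CG3505 (−491 bp), Zip89B (−489 bp), CG5973 (−483 bp), Dyro (−482 bp) and CG10527 (−481 bp). The most downstream were at CG31612 (500 bp), COX7AL2 (499 bp), CG13086 (497 bp), CG6163 (494 bp) and wde (491 bp). CG3505 and l(3)L1231 start 1731 bp apart on opposite strands, and the strongest peaks of each had signals of 184 and 5171. A further peak of CG3505, at −241 bp, had 171. The peak of CG3505 at −491 bp ranked 2757 in replicate 3 and had no match in replicate 4.

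Sequence words near the summit were ranked in several ways. By the difference in share between summits and flanks on the 646 members of 2L and 3L, the first 8-base word was AAATATAT, which on the 1116 members of 2R, 3R and X was near 6.72% of summits (50 bp to either side) and in 3.23% of flanking windows. By the ratio to flanks, a ranking added after seeing the data, the first was CAACCCTG, in 2.96% of summits and 0.134% of flanks on those other arms. CAACNCTG had already been named from the whole peak list, so its values on those arms are not independent of that choice. Over all 1776 members CAACNCTG was at 170 summits (9.57%), against 8.87% of divergent and 7.62% of internal promoter peaks. Its 4 forms were CAACACTG at 64 summits (0.225% of flanks), CAACCCTG at 53 (0.113%), CAACTCTG at 47 (0.253%) and CAACGCTG at 11 (0.197%).

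The middle base went with signal. Members with CAACCCTG had a median signal of 852 and those with CAACTCTG 495, while those with CAACACTG had 233 and those with CAACGCTG 198, near the 239 of the class. In the strongest of the 5 groups by signal, 9.55% of members had CAACCCTG, and in the next ones 2.54%, 0.845%, 1.41% and 0.563%. CAACTCTG went from 6.18% in the strongest group to 1.69% in the weakest. CAACACTG showed no such order, at 2.81%, 3.66%, 5.35%, 2.54% and 3.66%. Ranked within replicate 3 the share with CAACCCTG was 10.2% in the strongest and 0.301% in the weakest group, and within replicate 4 it was 9.25% and 1.16%, so the strongest group was above the weakest in both libraries.

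The shorter form with 7 letters, CAACCCT or CAACTCT, was present at 22.5% of summits in the strongest group, 8.73% in the next, and between 4.51% and 4.79% in the other 3. Flanking windows had 1.10% over the class. It was near 35 of the 100 strongest summits, so most strong peaks did not carry it within 50 bp. In the strongest group, the 54 members with CAACCCTG or CAACTCTG had a median offset of −29.5 bp and a median signal of 1367. The members of that group without either had −139 bp and 863. The peaks with the word were thus nearer to the TSS than the other strong ones.

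Bases beside the word differed among its forms. Before CAACCCTG the base 2 positions upstream was G in 67.9% of 53 occurrences, and the base directly upstream was G in 58.5% and A in 34.0%. Before CAACTCTG these positions were G in 76.6% and 68.1% of 47. Before CAACACTG they were G in 34.8% and 39.4% of 66, and T stood 4 positions upstream in 68.2%. In the printed stretches CAACCCTG of Rpn10 follows gg, CAACTCTG of spartin follows gtgg, and CAACACTG of nmdyn-D7 follows ttgg.

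Elements of housekeeping promoters behaved otherwise. The DRE was within 50 bp of 77 summits (4.34%) and the Motif 1 core of 61 (3.43%), against 0.591% and 0.422% of flanks. Peaks away from protein-coding promoters had 0.371% and 0.139%, and internal promoter peaks 0.673% each. Divergent promoter peaks had 5.02% and 2.90%, close to the shares of the members. Members with the DRE had a median signal of 205 and those with the Motif 1 core 179, both below the class. The Motif 1 core was at 1.40% of summits in the strongest group and 6.20% in the weakest, at 1.502% and 4.22% when ranked within replicate 3, and at 1.45% and 6.65% within replicate 4. The DRE was at 3.93% and 5.63% of the strongest and weakest groups, and its share did not keep 1 order in the 3 rankings.

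**Figure D5:**
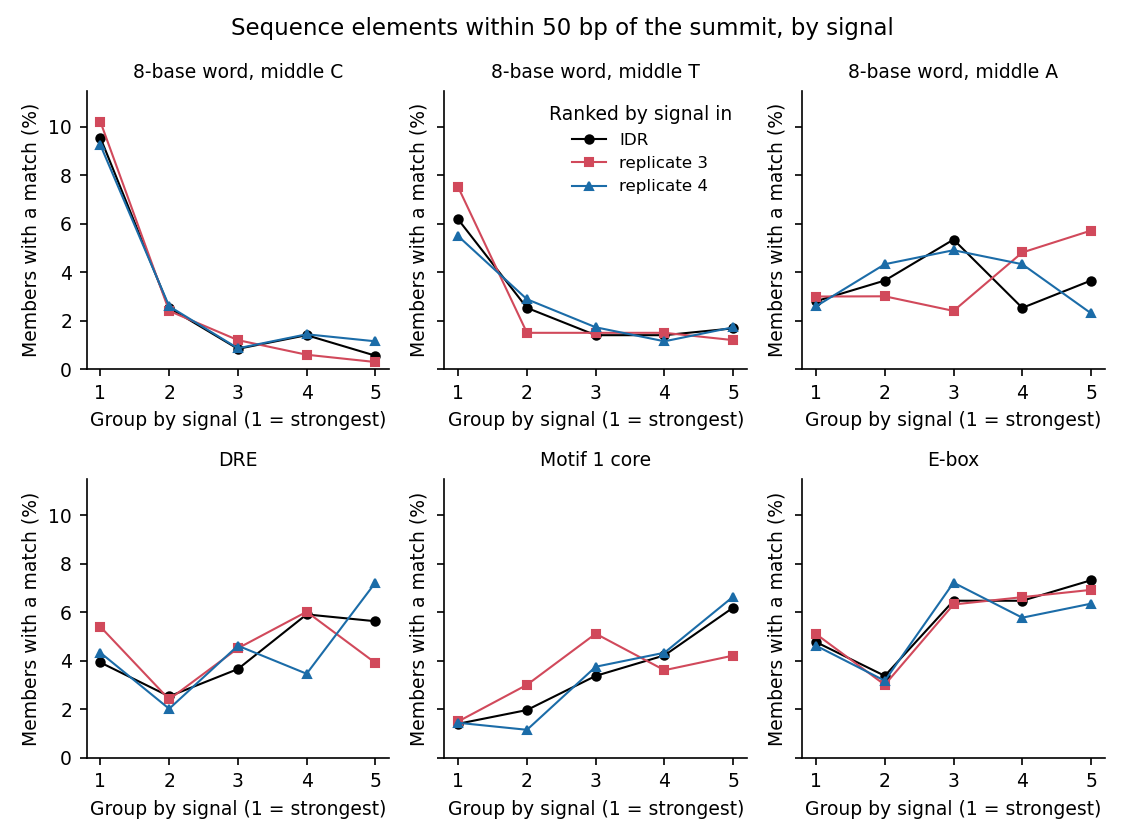
Share of one-strand first promoter peaks with the element no more than 50 bp from the summit (y, %) in 5 groups by signal (x, 1 strongest), with groups made from the IDR list (black), replicate 3 (red) or replicate 4 (blue). The 3 upper panels show the 8-base word by its middle base; with C it falls from 9.55% to 0.563% in the IDR ranking, and with A it has no such order.

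The word and these elements also differed in place. Within 250 bp of the summit, CAACCCTG was a median of 30.5 bp from it in 87 members, and 42.5% were within 25 bp. The DRE was a median of 75.5 bp away in 237 members, with 15.6% within 25 bp, and the Motif 1 core 83.5 bp away in 212, with 13.7%. Relative to the TSS, median positions were −23.5 bp for CAACCCTG, −47.5 bp for the DRE and −10.5 bp for the Motif 1 core.

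Promoters of 300 bp, from 250 before to 50 after the first TSS, were searched for the same letters in all 10141 eligible genes. The DRE was in 12.99% of promoters with a peak and 5.05% of those without (6.33% of all), and the Motif 1 core in 11.4% and 3.86% (5.08% of all). CAACCCTG was in 3.35% and 0.376% (0.858% of all), and CAACNCTG in 12.7% and 3.59% (5.06% of all). The 5-letter CGATA, shared by the BEAF-32 and DRE motifs and therefore overlapping the DRE, was in 53.0% and 39.6% (41.8% of all). CAGCTG was in 18.4% and 14.2% (14.9% of all), CACGTG in 3.48% and 3.91% (3.84%), and the GAGA repeat GAGAGAG in 9.21% and 6.47% (6.91%). The Zelda site CAGGTAG was in 0.549% and 1.99% (1.76%).

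Core elements of tissue-restricted promoters were less frequent in the promoter windows of genes with a peak. TATAAA on the strand of the gene was anywhere in 29.9% of promoters with a peak and 33.2% of those without (32.7% of all). Between 40 and 16 bp before the TSS, where a TATA box acts, it was in 3.23% and 10.2% (9.11% of all). TCAGT, the initiator core, was anywhere in 32.5% and 40.6% (39.3% of all), and within 5 bp of the TSS in 7.07% and 9.22% (8.87%). GC content of these promoters was 37.9% with a peak and 40.04% without. At the summits themselves (50 bp to either side) the order was different. There TATAAA was found in 18.6% of members and 14.9% of flanks, and TCAGT in 18.7% and 15.3%. TATAAA was at 23.3% of summits in the strongest group by IDR signal and at 16.1% in the weakest. Each match is a description of the letters in the window.

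The genes themselves differed in build. Genes with a peak had a median length of 3505.5 bp (quartiles 1769 and 8328) and those without 1979 bp (quartiles 1050 and 5003). A single TSS was annotated for 58.5% of genes with a peak and 77.9% of those without. Of the genes with a peak, 15.8% had 3 or more TSSs, against 6.49%. A gene counts when any of its TSSs within 1000 bp of the first lies within 500 bp of a summit. The difference in TSS number is therefore partly set by the rule.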

How the data were processed

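Whole-fly ChIP-seq peaks of 1 group with 2 samples were used. The deposited lists are in narrowPeak format on dm6, per the labels: 30000 peaks for each replicate, 30000 for both pooled, and 5654 in the optimal IDR list. The signal value of each peak was computed by the authors, and its scale differs between lists, so it was compared within a list only. The deposited −log10 q value was 4.15 for all 5654 IDR peaks and ranked nothing. The position of each summit is the deposited offset from the peak start. The sources used here do not give the aligner, the caller, any version or the threshold of the IDR. The control was not analysed here. Depth is unknown.

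Summits on the 6 chromosome arms were compared with TSSs of the Ensembl annotation BDGP6.54 (release 115), without transposable elements, and with RefSeq sequence of the same assembly, in Python 3.11.15 with pandas 2.3.3 and numpy 2.4.6. The offset, the class and the search for words were checked on planted peaks and words. Words and motifs were searched on both strands, except TATAAA and TCAGT, within 50 bp of the summit, in windows of the same size 300 bp to either side, and in 300 bp promoters. Peaks of different lists were matched within 100 bp. Gene symbols of 31 lists were matched through the annotation and its synonyms, and 9 without a match were left out. In addition, 1 gene was taken out of a list and is not reported here.

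Peaks and genes are not replicates, so shares and medians are descriptions with no test and no p-value, set beside the same values in each replicate. The members and lists were chosen with earlier results of these data known. Named genes are the 25 strongest and 5 weakest members, and the 5 farthest from an upstream protein-coding gene. Also named are the 5 at each end of the offset range and the 3 strongest of each list. Other genes named, the 5 groups by signal, the ranking of words by ratio, the 7-letter word, the elements in place, the bins of upstream distance and the split by replicate were added after seeing the data. Alternatives were the list of 1 replicate, a stricter list, other distances, and TSSs or upstream genes of all types.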

Additional observations from a re-analysis of the deposited data

How the results depend on the processing

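Limits are few samples, unknown depth and no control used. No paired analysis was possible because there is 1 group. The median signal was not recomputed from single replicate lists, whose scales differ. Leaving out a replicate means using the 5654 best peaks of the other. These gave 1723 to 1863 members, a median offset of −87 to −42 bp, 62.9% to 80.3% of summits upstream, an upstream distance of 519.5 to 531 bp, AAATATAT near 6.01% to 7.20% of summits and a peak at 15.4% to 16.7% of eligible genes. In the stronger part of the IDR list, 2827 peaks, there were 806 members at 7.49% of eligible genes, with a median signal of 467, an upstream distance of 541.5 bp and AAATATAT at 9.18%. A TSS window of 250 bp gave 423 bp, 5.92% with AAATATAT and 14.8% of eligible genes, and a window of 1000 bp gave 484 bp and 18.0%. First promoters within 500 bp gave an upstream distance of 547.5 bp, and within 2000 bp 493 bp. Judging strand on TSSs of all gene types gave 504.5 bp, and upstream genes of any type gave 444 bp. A word window of 100 bp gave AAATATAT at 11.7%. These settings kept the median offset upstream of the TSS. The cause of each move was not tested, apart from the fewer peaks and the wider window by which the settings are made. CAACCCTG and the DRE, added after seeing the data, were near 2.62% to 5.46% and 3.10% to 8.11% of summits over the settings.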
